A study of Mus musculus with 24 samples.

Results

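The enzymes that hydroxylate and cross-link collagen were followed in mouse liver through 9 genes, named by symbol: the prolyl 4-hydroxylase subunits P4ha1 and P4ha2, the lysyl hydroxylases Plod1 and Plod2, and the lysyl oxidases Lox, Loxl1, Loxl2, Loxl3 and Loxl4. The brightest probe set of each symbol, by its mean over all 24 arrays, gave 8 of the 9 a value, among 18820 symbols measured. Loxl3 lay only on 2 probe sets shared with the neighbouring gene Htra2 and has no value here. All values are log2 intensities normalised by RMA, so a difference of 1 on this scale is a doubling of intensity.

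Liver RNA came from male mice labelled C57/BL6, with 3 arrays in each of 8 groups. JNK1-/- mice lack the kinase JNK1, which the gene Mapk8 encodes, in all cells, while JNK1Δhepa mice delete it in hepatocytes through a Cre transgene driven by a postnatally active albumin promoter. Both were examined 28 d and 48 h after ligation of the common bile duct, which obstructs bile flow and induces liver fibrosis, and so were control mice carrying the unrecombined floxed gene (JNK1f/f). Sham-operated JNK1f/f mice, whose abdomen was opened and closed again, were the reference for ligation at 28 d and at 48 h. Surgery was at 7 to 8 weeks of age. The labelled age was 12 weeks in the 28 d groups and 8 weeks in the 48 h groups, so time after surgery and age cannot be told apart. No sham-operated mutants were among the arrays. The JNK1-/- mice were bought and the floxed line was a gift, and the labels call neither littermates of the controls. The labels tell the animals of a group apart only by a number, so p-values measure the spread between these samples.

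Collagen chains are modified before and after they leave the cell. Prolyl 4-hydroxylases, whose catalytic subunits are encoded by P4ha1 and P4ha2, hydroxylate prolines in the endoplasmic reticulum and so make the triple helix stable at body temperature, and lysyl hydroxylases (Plod genes) hydroxylate lysines, which later take part in cross-links. Outside the cell, lysyl oxidases oxidise lysine and hydroxylysine side chains to aldehydes that condense into the covalent cross-links of collagen and elastin, and scar rich in such cross-links is stiff and slow to be degraded.

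Mapk8, the targeted gene, was read first. It measured 6.11, 5.18 and 5.61 in JNK1-/- livers at 28 d and 5.33, 6.17 and 6.09 at 48 h, against 7.67, 7.41 and 7.44 in ligated control livers at 28 d and 7.47, 7.49 and 7.37 at 48 h. JNK1Δhepa livers measured 7.67, 6.90 and 6.97 at 28 d and 6.77, 6.81 and 6.76 at 48 h, so the library labelled JNK1Δhepa 28 d replicate 1 was at the control level. The libraries labelled control sham 48 h also stood low, at 6.93, 6.67 and 6.86, against 7.52, 7.52 and 7.54 in the sham libraries of 28 d. The sources used here do not say whether the Mapk8 probes fall within the deleted exons. The 7 hepatocyte markers, among them Alb and Ttr, averaged 12.67 to 12.96 on the 24 arrays. Results on the enzymes that rest on JNK1Δhepa 28 d replicate 1 are therefore also given without it, and the 48 h ligation effect also with the sham livers of 28 d in place of those of 48 h.

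At 28 d after ligation, 4 of the 8 measured enzymes rose in control liver and 2 fell. Lox, the founding lysyl oxidase, rose 5.04-fold, and Loxl1, Loxl2 and Plod2 rose 2.09-fold to 2.27-fold. Loxl4 and P4ha1 fell, 2.42-fold and 1.70-fold. Of all 18820 symbols, 11.7% were called higher and 11.5% lower in the same comparison (limma, adjusted p under 0.05 after Benjamini-Hochberg adjustment over all symbols). The median difference of the 8 enzymes was 0.63, against −0.03 over all symbols. In whole liver, more cells of a type and more RNA per cell cannot be told apart.

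**Figure D1:**
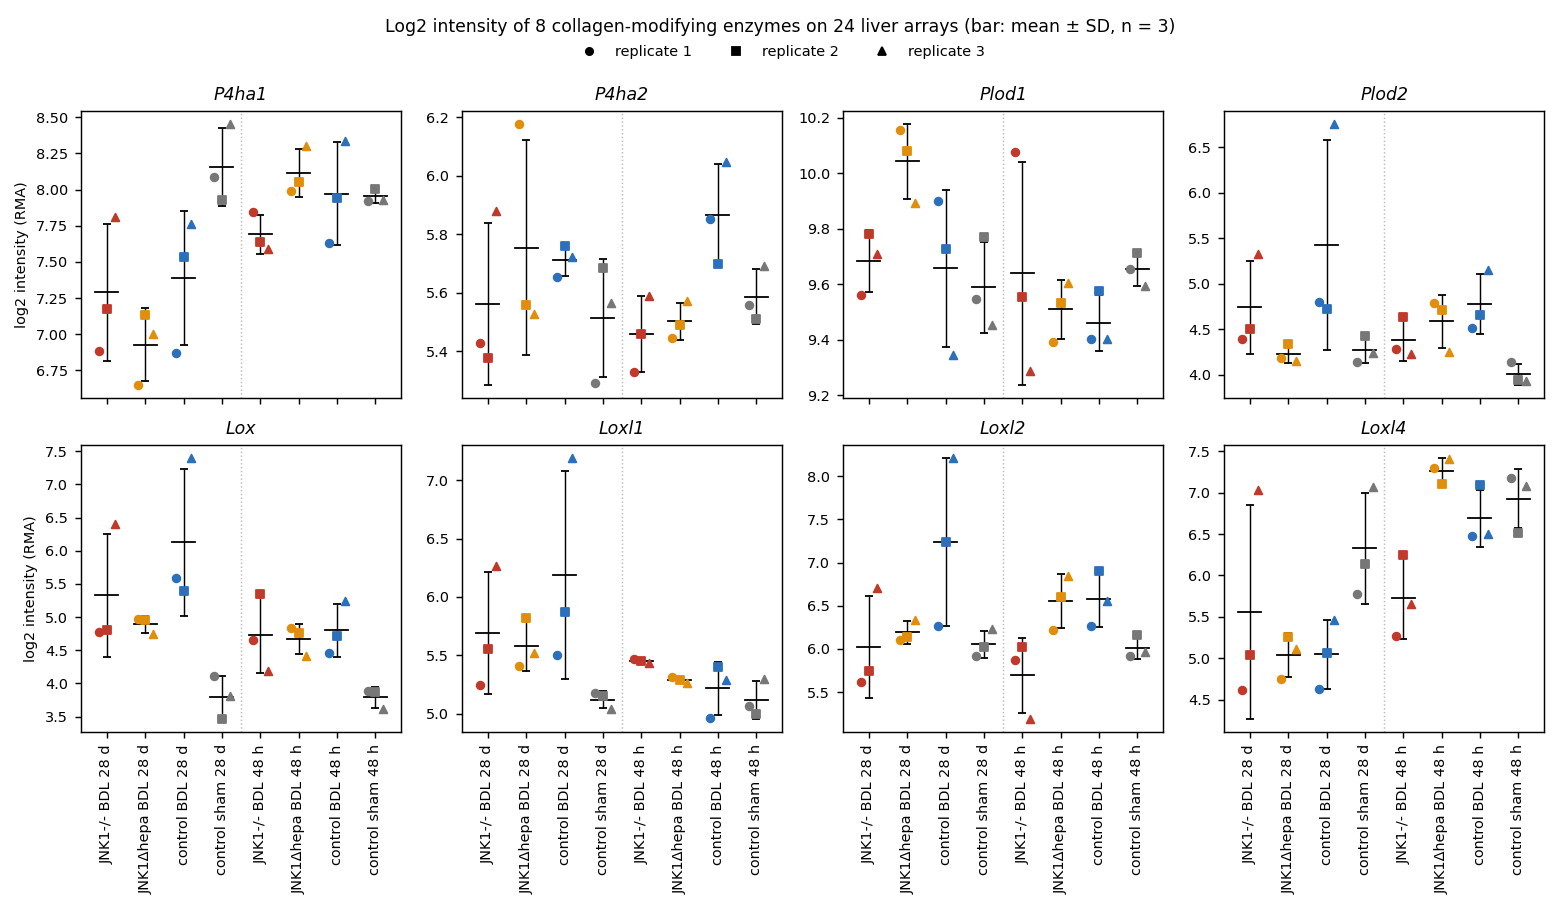
Log2 intensity (y axis) of each measured enzyme in the 8 groups (x axis, ligated 28 d and sham 28 d on the left, the 48 h groups on the right), with 1 point per array and the mean ± SD of 3 arrays. Lox in sham liver, at 3.47 to 4.11, lies below every ligated array, and replicate 3 of ligated control liver at 28 d is the highest array for Lox, Loxl1, Loxl2 and Plod2.

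P4ha1 encodes the more widely expressed of the catalytic prolyl 4-hydroxylase subunits. It measured 6.87, 7.53 and 7.76 in ligated control livers at 28 d, against 8.09, 7.93 and 8.45 in sham livers. Every ligated value lay below every sham value. The difference was −0.77 (SE 0.23, limma adjusted p = 0.0208). It was not called without ligated replicate 1 (−0.51, limma adjusted p = 0.124) or without sham replicate 3 (limma adjusted p = 0.106). P4ha2, its paralogue, measured 5.65, 5.76 and 5.72 in the ligated livers and 5.29, 5.68 and 5.57 in the sham livers, with groups that overlapped. Its difference of 0.20 (95% confidence interval −0.13 to 0.52, limma adjusted p = 0.398) did not pass the test.

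Plod2, the lysyl hydroxylase that acts on the ends of the collagen molecule, measured 4.80, 4.72 and 6.76 in ligated control livers at 28 d, against 4.14, 4.42 and 4.24 in sham livers. The groups did not overlap, but replicate 3 of the ligated livers stood far above the other two. The difference was 1.16 (SE 0.36, limma adjusted p = 0.0248), and without that array it was 0.49 (limma adjusted p = 0.140). It was not called without sham replicate 1 or 3 either (limma adjusted p = 0.0759 and 0.0652). Plod1, which hydroxylates lysines within the helix, measured 9.90, 9.73 and 9.35 in ligated livers and 9.55, 9.77 and 9.45 in sham livers. These groups overlapped, with a difference of 0.07 (95% confidence interval −0.26 to 0.40, limma adjusted p = 0.802).

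Lox measured 5.59, 5.39 and 7.40 in ligated control livers at 28 d, against 4.11, 3.47 and 3.80 in sham livers. All 3 ligated livers were more than 1 log2 unit above the highest sham liver. The difference was 2.33 (SE 0.44, limma adjusted p = 0.000638). It stayed called when each of the 6 arrays was left out in turn, between 1.70 and 2.70, with the lowest value without ligated replicate 3. Over the whole data set, Lox was higher in each of the 18 ligated arrays of the 3 genotypes, lowest 4.19, than in any of the 6 sham arrays, highest 4.11.

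Loxl1, a lysyl oxidase known for its part in elastic fibre assembly, measured 5.50, 5.87 and 7.19 in ligated control livers at 28 d, against 5.17, 5.15 and 5.04 in sham livers. The sham values lay close together and below all ligated values. The difference was 1.07 (SE 0.29, limma adjusted p = 0.0111), and 0.56 without ligated replicate 3 (limma adjusted p = 0.0566).

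Loxl2 encodes a lysyl oxidase that acts on type IV collagen of basement membranes and on fibrillar collagen. It measured 6.27, 7.24 and 8.21 in ligated control livers at 28 d, against 5.92, 6.02 and 6.23 in sham livers. The lowest ligated liver was just above the highest sham liver. The difference was 1.18 (SE 0.35, limma adjusted p = 0.0180). Without ligated replicate 3 it was 0.70 (limma adjusted p = 0.120), and without sham replicate 1 it was not called either (limma adjusted p = 0.0609). A dimmer second probe set of Loxl2, with a mean of 3.58 against 6.29 for the one used, gave −0.08 (limma adjusted p = 0.784), so the rise was seen on 1 of the 2 probe sets.

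Loxl4, a lysyl oxidase closely related to Loxl2 and Loxl3, went the other way. It measured 4.63, 5.06 and 5.46 in ligated control livers at 28 d, against 5.78, 6.13 and 7.07 in sham livers. The groups did not overlap. The difference was −1.27 (SE 0.44, limma adjusted p = 0.0438) and it was not called without ligated replicate 1 or 2 or without sham replicate 2 or 3. Its other probe set gave −0.90 (limma adjusted p = 0.0823).

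**Figure D2:**
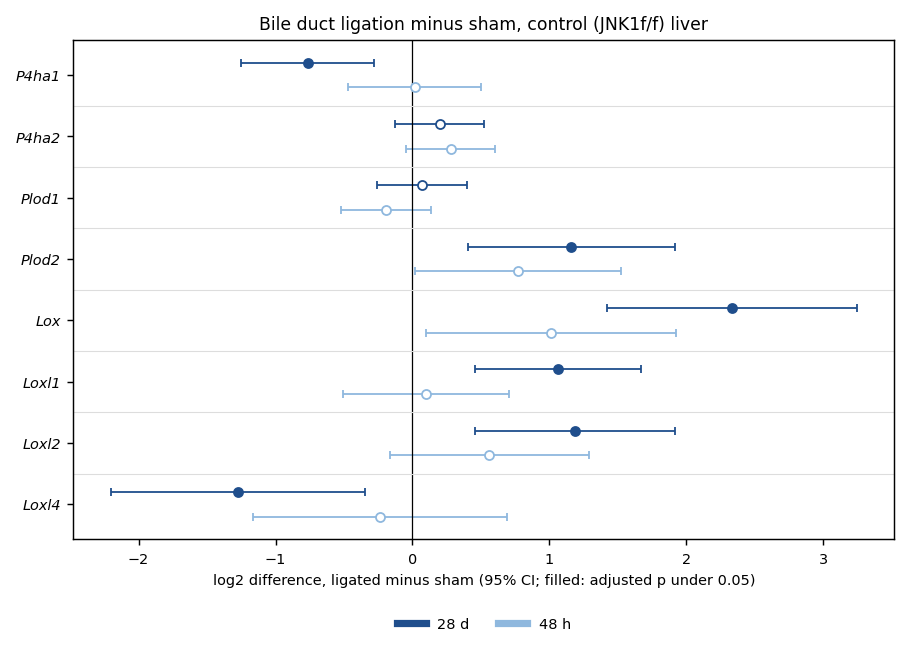
Log2 difference of ligated minus sham control liver (x axis) for each enzyme (y axis) at 28 d (dark, above) and 48 h (light, below), with 95% confidence intervals; filled points passed the test. Plod2, Lox, Loxl1 and Loxl2 lie right of 0 and P4ha1 and Loxl4 left of 0 at 28 d, and every point of 48 h is open.

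Ligated control replicate 3 carried much of the size of the rises. It was the highest of its group for 6 of the 8 enzymes. The same array was also the highest of its group for marker genes of several cell types. Its mean over 11 stellate cell and myofibroblast markers was 9.21, against 6.76 and 7.29 on the other ligated arrays and 7.03 to 7.35 in sham liver. Over 6 bile duct cell markers it was 7.76, against 5.49 and 5.73 on the other ligated arrays and 4.99 to 5.63 in sham liver. The array was also highest for portal fibroblast and mesothelial markers (7.38, against 6.36 and 5.74) and endothelial markers (8.45, against 7.74 and 8.07). For macrophage markers it was highest too (8.87, against 8.48 and 8.83), and for hepatocyte markers lowest (12.67, against 12.73 and 12.74). Without replicate 3, 3 of the 8 enzymes were called, Lox higher and Loxl4 and P4ha1 lower. In that fit 11.2% of all symbols were called higher and 10.4% lower. Without sham replicate 3 there were also 3, then all higher: Lox, Loxl1 and Loxl2. In a fit to the 6 arrays of the comparison alone, Lox was the 1 enzyme called (limma adjusted p = 0.0374). Shares of all symbols were not counted for the fits without sham replicate 3 and to the 6 arrays alone.

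**Figure D3:**
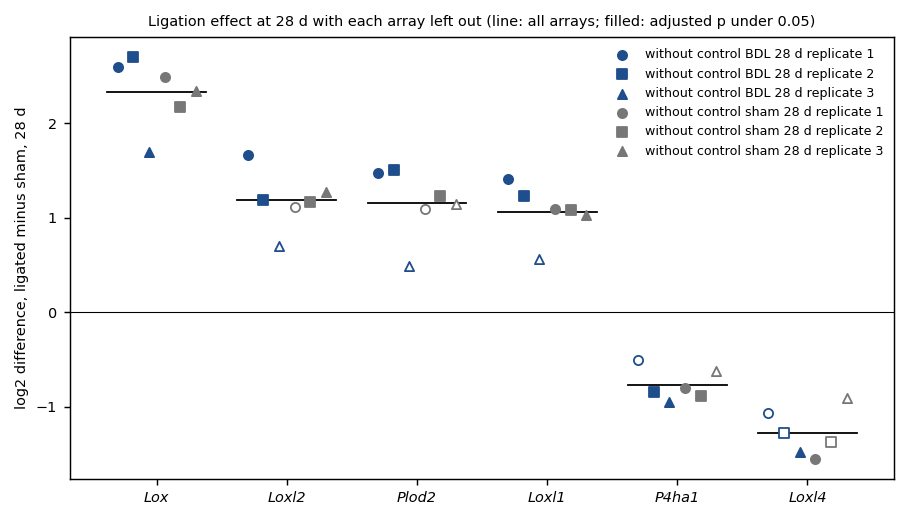
Log2 difference of ligated minus sham control liver at 28 d (y axis) for the 6 called enzymes (x axis) when each of the 6 arrays is left out; horizontal lines give the difference with all arrays, and open points did not pass the test. Lox stays between 1.70 and 2.70 with all points filled, while Plod2, Loxl1 and Loxl2 are lowest and open without ligated replicate 3.

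Marker genes of other cell types moved in the same comparison. Of 8 macrophage markers 5 rose and none fell, of 9 portal fibroblast and mesothelial markers 4 rose, of 6 bile duct markers 1 rose and of 11 stellate markers 1 rose. Of 7 hepatocyte markers 3 fell, and of 6 endothelial markers 1 fell. The mean level of the hepatocyte markers was 12.67 to 12.74 in ligated livers and 12.89 to 12.96 in sham livers, and that of the macrophage markers 8.48 to 8.87 and 7.22 to 7.48 in the same order. For the portal fibroblast and mesothelial markers the ranges were 5.74 to 7.38 in ligated livers and 5.54 to 5.60 in sham livers, and for the endothelial markers 7.74 to 8.45 and 8.12 to 8.29. Without ligated replicate 3, the counts that differed were those of the portal fibroblast and mesothelial markers, of which 2 rose, and of the bile duct markers, of which none did. No probe set read 0 on any array, so a marker's reading above 0 does not show that it was detected. Their part in the enzymes' differences was not tested.

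The substrates and the other collagen-modifying genes were counted beside the enzymes. Of 10 fibrillar collagen and elastic fibre genes, 4 rose and 1 fell at 28 d, with a median difference of 0.56. Col1a1 and Col1a2, the chains of type I collagen, rose by 1.75 and 1.39, Col5a2 of type V collagen rose by 1.11, and Col5a3 fell by 0.40. Of 22 other genes that modify, fold or process collagen, 6 rose and 1 fell, with a median of 0.24. Crtap, a partner of the prolyl 3-hydroxylase complex, rose by 0.92, and Adamts14, which removes amino-terminal propeptides, by 0.53. Of the galactosyltransferases that act on hydroxylysine, Colgalt1 rose by 0.66 and Colgalt2 fell by 1.20. Prolyl hydroxylases and lysyl oxidases include known targets of hypoxia signalling, and of 16 hypoxia response genes 4 rose and 2 fell, with a median of 0.13. Adm rose by 1.92, Bnip3 by 0.84 and the glucose transporter gene Slc2a1 by 0.77, and Pdk1 fell by 0.85. Without ligated replicate 3, 2 of the 10 substrates rose and none fell, with a median of 0.18, 6 of the 22 other genes rose and 1 fell, with a median of 0.01, and 6 of the 16 hypoxia response genes rose and 1 fell. In that fit 11.2% of all symbols were called higher and 10.4% lower.

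P4ha1 and Loxl4 fell together while P4ha2, the other prolyl 4-hydroxylase subunit, did not pass the test, and their start regions are shown for that reason. The start regions of Lox, Loxl1, Loxl2 and Plod2 were not searched. Those of 4 measured enzymes were taken from RefSeq's promoter table on GRCm38.p6: P4ha1 (chr10:59323046-59323345, plus strand), P4ha2 (chr11:54100674-54100973, plus strand), Loxl4 (chr19:42612757-42613056, minus strand) and Plod1 (chr4:147936727-147937026, minus strand). Each window runs 250 bases before to 50 after the gene's start and is written 5′ to 3′ on the gene's strand. Capitals mark the core of the hypoxia response element, ACGTG on either strand.
P4ha1: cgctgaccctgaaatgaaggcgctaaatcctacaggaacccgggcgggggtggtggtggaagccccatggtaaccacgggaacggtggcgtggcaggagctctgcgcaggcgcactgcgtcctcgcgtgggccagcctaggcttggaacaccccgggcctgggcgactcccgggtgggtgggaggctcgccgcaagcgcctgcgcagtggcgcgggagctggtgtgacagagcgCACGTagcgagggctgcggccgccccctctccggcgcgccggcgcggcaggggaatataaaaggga
P4ha2: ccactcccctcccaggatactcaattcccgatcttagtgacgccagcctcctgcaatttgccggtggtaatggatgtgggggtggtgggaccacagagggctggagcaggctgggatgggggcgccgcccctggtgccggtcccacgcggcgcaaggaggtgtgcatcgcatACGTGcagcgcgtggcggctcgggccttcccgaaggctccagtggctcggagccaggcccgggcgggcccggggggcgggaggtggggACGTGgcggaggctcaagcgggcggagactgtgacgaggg
Loxl4: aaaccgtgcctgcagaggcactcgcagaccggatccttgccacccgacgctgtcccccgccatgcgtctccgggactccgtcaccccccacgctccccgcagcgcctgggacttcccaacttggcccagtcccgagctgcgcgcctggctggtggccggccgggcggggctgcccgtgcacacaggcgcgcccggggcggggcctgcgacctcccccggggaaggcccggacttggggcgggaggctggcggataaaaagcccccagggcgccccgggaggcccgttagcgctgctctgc
The P4ha1 window held 1 match, on the minus strand at base −16, and the P4ha2 window held 2 matches on the plus strand, at −78 and +11. Neither Loxl4 nor Plod1 held one. Of 32851 mouse promoter windows of this length 19.6% held at least 1. The AP-1 motif TGANTCA, bound by dimers that contain c-Jun, a substrate of JNK, was searched on both strands and is in 7.81% of all windows. It was in none of the 4. A match is a string of letters in this window and not a measured binding site.

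At 48 h after ligation 0 of the 8 enzymes were called in control liver with limma, against 9.43% of all symbols, 5.61% higher and 3.83% lower. Of the 8 enzymes, 2 had an unadjusted p under 0.05. Shares of all symbols, here and below, are at adjusted p under 0.05 and are no reference for counts at an unadjusted p. Lox measured 4.45, 4.71 and 5.24 in ligated livers, against 3.89, 3.88 and 3.61 in sham livers. Its groups were apart, but the difference of 1.01 (SE 0.44, limma adjusted p = 0.164) did not pass the test. Plod2 measured 4.51, 4.66 and 5.15 in ligated livers, against 4.13, 3.94 and 3.93 in sham livers, again without overlap. Its difference was 0.77 (SE 0.36, limma adjusted p = 0.204). Loxl2 differed by 0.56 (95% confidence interval −0.17 to 1.29), and P4ha1, which fell at 28 d, by 0.02 (95% confidence interval −0.47 to 0.50). With the sham livers of 28 d in place of those of 48 h, 0 enzymes were called as well, against 11.9% of all symbols. Lox then differed by 1.01 (limma adjusted p = 0.155) and Plod2 by 0.50 (limma adjusted p = 0.442).

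Other collagen-modifying genes were called at 48 h: 3 of 22 rose and 1 fell. Tgm2, the transglutaminase that forms isopeptide cross-links, rose by 1.19, Crtap by 0.76 and Colgalt1 by 0.48, and the procollagen C-proteinase gene Bmp1 fell by 0.48. Of the 10 fibrillar substrates none was called, and Col1a1 differed by 1.16 (limma adjusted p = 0.0699). Of the 16 hypoxia response genes 1 rose and 1 fell, Adm by 1.41 and Pdk1 by 0.97. With the sham livers of 28 d in their place, 3 of the 22 rose and 2 fell, Colgalt2 as well as Bmp1, 0 of the 10 substrates rose and 1, Fbln5, fell, and 3 of the 16 hypoxia response genes rose and 1 fell. In that fit 6.8% of all symbols were called higher and 5.13% lower.

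Marker genes moved at 48 h too. Of 8 macrophage markers 4 rose, with a median difference of 0.66 and a mean level of 8.19 to 8.29 in ligated livers, against 7.55 to 7.63 in sham livers. Of 6 bile duct markers 2 rose, with a median of 1.23 and a mean level of 5.75 to 6.44 in ligated livers, against 4.91 to 5.08 in sham livers. Of 11 stellate markers 1 rose, of 9 portal fibroblast and mesothelial markers 1 rose, of 7 hepatocyte markers 1 fell and of 6 endothelial markers 0 were called. With the sham livers of 28 d in their place, the macrophage markers Cd68, Gpnmb, Itgam, Lyz2 and Trem2 were called higher. So were Sox9 of bile duct cells, Vim of stellate cells and Entpd2 of portal fibroblasts. The endothelial marker Kdr was called lower, and no hepatocyte marker was called. In that fit 6.8% of all symbols were called higher and 5.13% lower. Their part in the differences at 48 h was not tested.

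Whether ligation acted differently at 28 d and at 48 h was tested directly. The interaction was called for 0 of the 8 enzymes with limma, and 3 had an unadjusted p under 0.05, with 1.3% of all symbols called. The difference between the ligation effects was 1.32 for Lox (95% confidence interval 0.03 to 2.62), 0.97 for Loxl1 (0.11 to 1.82) and −0.78 for P4ha1 (−1.47 to −0.10), and the lowest adjusted p of the 8 was 0.266. Without ligated 28 d replicate 3 the difference was 0.69 for Lox and 0.46 for Loxl1. With the sham livers of 28 d as the reference at both times, the interaction equals the difference between the ligated control livers of 28 d and 48 h, which is given with the time comparisons and was called for 2 enzymes. Against each time's own sham livers, a change in the enzymes' response to ligation was thus not detectable with these arrays. Between sham livers at 28 d and at 48 h, 0 enzymes were called, 0 had an unadjusted p under 0.05, and 0.133% of all symbols were called. Loxl4 had the widest gap there, −0.60 (95% confidence interval −1.53 to 0.33).

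Between ligated livers at 28 d and at 48 h, each genotype was compared with itself. In JNK1Δhepa livers 3 enzymes were called: Plod1 rose, against 9.3% of all symbols called higher, and Loxl4 and P4ha1 fell, against 8.67% called lower. Loxl4 measured 4.75, 5.25 and 5.12 at 28 d, against 7.29, 7.10 and 7.41 at 48 h. All 3 later livers lay well below the earlier ones, with a difference of −2.23 (SE 0.44, limma adjusted p = 0.00204, 4.68-fold lower). P4ha1 measured 6.65, 7.13 and 7.00 at 28 d, against 7.99, 8.05 and 8.30 at 48 h. Its groups were also apart, with a difference of −1.18 (SE 0.23, limma adjusted p = 0.00172, 2.27-fold lower). Both stayed called when any 1 of the 6 arrays was left out. Plod1 measured 10.16, 10.08 and 9.89 at 28 d, against 9.39, 9.53 and 9.60 at 48 h, a difference of 0.53 (SE 0.16, limma adjusted p = 0.0232). It was not called without replicate 1 or 2 of either time. Without the 28 d library that read Mapk8 at the control level, the differences were −2.08 for Loxl4, −1.05 for P4ha1 and 0.48 for Plod1, and Plod1 was no longer called (limma adjusted p = 0.0977).

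Other collagen-modifying genes also fell between these JNK1Δhepa groups, 4 of 22 with none that rose. Serpinh1, the collagen chaperone HSP47, fell by 1.31, Pcolce2, an enhancer of C-proteinase, by 0.98, the lysyl hydroxylase Plod3 by 0.51 and the prolyl isomerase Fkbp14 by 0.50. Without the 28 d library that read Mapk8 at the control level, 1 of the 22 fell, Plod3, and none rose. In that fit 5.53% of all symbols were called higher and 4.67% lower. Cell type markers moved as well. Of 6 endothelial markers 2 fell, with a median difference of −0.58 and a mean level of 7.72 to 7.80 at 28 d, against 7.97 to 8.29 at 48 h. Of 11 stellate markers 1 fell, with a median of −0.44 and a mean level of 6.56 to 6.99 at 28 d, against 7.12 to 7.30 at 48 h. Of 6 bile duct markers 1 fell, of 8 macrophage markers 2 rose, and 0 hepatocyte or portal fibroblast and mesothelial markers were called. Without the same library 0 markers of these 6 lists were called. Their part in the enzymes' differences was not tested.

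In control livers 2 enzymes were called between the ligated groups. Loxl1 rose by 0.97 (SE 0.29, limma adjusted p = 0.0380), with 5.50, 5.87 and 7.19 at 28 d, against 4.96, 5.40 and 5.29 at 48 h, and 5.11% of all symbols were called higher. Loxl4 fell by 1.64 (SE 0.44, limma adjusted p = 0.0244), with 4.63, 5.06 and 5.46 at 28 d, against 6.47, 7.09 and 6.50 at 48 h, and 5.31% were called lower. For both genes every 28 d array lay outside the range of the 48 h arrays. Loxl1 was not called without 28 d replicate 3 or without any one of the 48 h arrays, and Loxl4 was not called without 28 d replicate 1 or 48 h replicate 1 or 2. Without 48 h replicate 1 or 2, 0 enzymes were called, and without 48 h replicate 3, 1. Lox differed by 1.32 (limma adjusted p = 0.0588). Without 28 d replicate 3, Loxl1 differed by 0.47 and Lox by 0.69, while Loxl4 fell by 1.84 and P4ha1 was called too, lower by 0.77 (limma adjusted p = 0.0182 and 0.0432). In that fit 6.72% of all symbols were called higher and 7.45% lower.

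Among marker genes in these control groups, 2 of 9 portal fibroblast and mesothelial markers rose, with a median difference of 0.92 and a mean level of 5.74 to 7.38 at 28 d, against 5.48 to 5.93 at 48 h. Of 8 macrophage markers 2 rose, with a mean level of 8.48 to 8.87 at 28 d, against 8.19 to 8.29 at 48 h. Of 7 hepatocyte markers 2 fell, with a mean level of 12.67 to 12.74 at 28 d, against 12.80 to 12.84 at 48 h, and of 6 bile duct markers 1 fell. Of 11 stellate markers 0 were called, with a median of 0.58, and of 6 endothelial markers 0 were called. Their part in the enzymes' differences was not tested.

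In JNK1-/- livers 0 enzymes were called between 28 d and 48 h with limma, 0 had an unadjusted p under 0.05, and 2.84% of all symbols were called. Loxl4 measured 4.61, 5.04 and 7.03 at 28 d, against 5.27, 6.25 and 5.65 at 48 h. Replicate 3 of 28 d was the highest of the 6, the other 28 d arrays were the lowest, and the difference was −0.16 (95% confidence interval −1.09 to 0.77). Whether the time difference of an enzyme depended on genotype was tested as the change of the mutant-minus-control difference. It was called for 0 enzymes in JNK1-/- (1 at an unadjusted p under 0.05; 0.744% of all symbols called) and for 0 in JNK1Δhepa (0 at an unadjusted p under 0.05; 0% of all symbols called). For Loxl4 that change was 1.47 in JNK1-/- (95% confidence interval 0.16 to 2.79, limma adjusted p = 0.271) and −0.59 in JNK1Δhepa (−1.90 to 0.72). Without JNK1-/- 28 d replicate 3 the change in JNK1-/- was 0.74 (limma adjusted p = 0.528), and the time difference of Loxl4 was −0.90 (limma adjusted p = 0.194). With any 1 array left out, 0 enzymes were called in both.

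The mutants were compared with control liver after ligation, and 0 of the 8 enzymes were called with limma in any of these 4 comparisons. For JNK1-/- at 28 d 1 enzyme had an unadjusted p under 0.05 and 0.627% of all symbols were called, and at 48 h 3 had such a p and 2.3% were called. For JNK1Δhepa at 28 d 4 enzymes had such a p and 0.228% of all symbols were called, and at 48 h 1 had and 0% were called. These shares are at adjusted p under 0.05 and so are no reference for the counts at an unadjusted p. Both mutants share the control arrays, so their differences from control are not independent of each other.

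**Figure D4:**
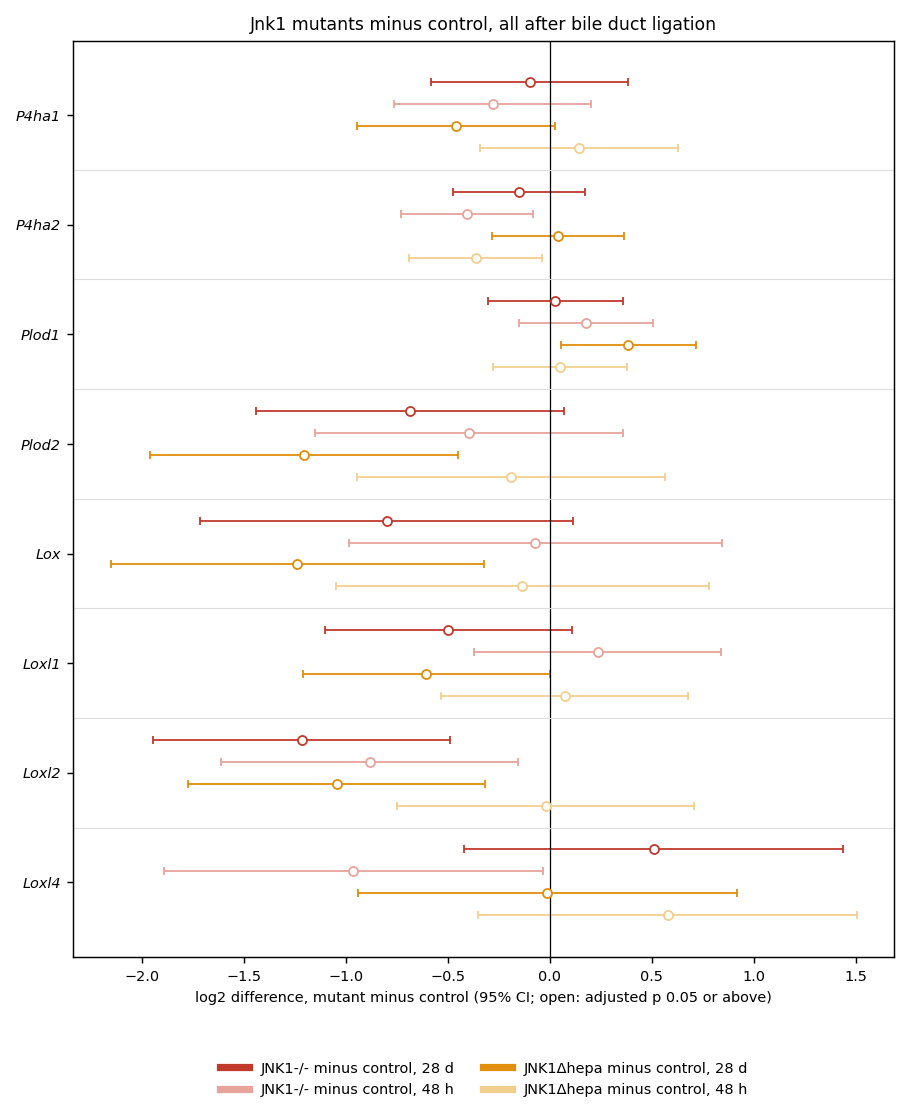
Log2 difference of mutant minus control liver after ligation (x axis) for each enzyme (y axis), JNK1-/- in red and JNK1Δhepa in orange, dark for 28 d and light for 48 h, with 95% confidence intervals. All points are open, since none passed the test, and the lowest are Lox and Plod2 in JNK1Δhepa and Loxl2 in JNK1-/- at 28 d.

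At 28 d, Loxl2 measured 5.62, 5.74 and 6.70 in JNK1-/- livers and 6.10, 6.13 and 6.34 in JNK1Δhepa livers, against 6.27, 7.24 and 8.21 in control livers. Each mutant overlapped the control range at its lower end. The differences from control were −1.22 in JNK1-/- (SE 0.35, limma adjusted p = 0.131) and −1.05 in JNK1Δhepa (SE 0.35, limma adjusted p = 0.175). Without control replicate 3 they were −0.73 in JNK1-/- (limma adjusted p = 0.2496) and −0.56 in JNK1Δhepa (limma adjusted p = 0.660). On the dimmer probe set of Loxl2 they were −0.26 and 0.19. At 48 h Loxl2 measured 5.87, 6.02 and 5.19 in JNK1-/- livers, against 6.27, 6.91 and 6.56 in control livers, with no overlap and a difference of −0.88 (SE 0.35, limma adjusted p = 0.213).

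Lox and Plod2 also read low in the mutants at 28 d. Lox measured 4.78, 4.80 and 6.40 in JNK1-/- livers and 4.97, 4.95 and 4.74 in JNK1Δhepa livers, against 5.59, 5.39 and 7.40 in control livers. All JNK1Δhepa arrays were below the control arrays, with a difference of −1.24 (SE 0.44, limma adjusted p = 0.197), and in JNK1-/- the difference was −0.80 (95% confidence interval −1.71 to 0.12). Without control replicate 3 the differences of Lox were −0.60 in JNK1Δhepa and −0.16 in JNK1-/-. Plod2 measured 4.39, 4.51 and 5.33 in JNK1-/- livers and 4.18, 4.34 and 4.15 in JNK1Δhepa livers, against 4.80, 4.72 and 6.76 in control livers. Again the JNK1Δhepa arrays were below all control arrays, with a difference of −1.20 (SE 0.36, limma adjusted p = 0.137), and in JNK1-/- the difference was −0.69 (95% confidence interval −1.44 to 0.07). Without control replicate 3 the JNK1Δhepa difference of Plod2 was −0.54 (limma adjusted p = 0.518) and that in JNK1-/- −0.02 (limma adjusted p = 0.979). Without control replicate 1 the JNK1Δhepa difference was −1.52 (limma adjusted p = 0.0181). Without control replicate 1, 4 enzymes were called lower in JNK1Δhepa (Loxl1, Loxl2, P4ha1 and Plod2) and 1 in JNK1-/- (Loxl2). In those fits 5.7% of all symbols were called lower in JNK1Δhepa, and 0.266% in JNK1-/-. Without the JNK1Δhepa library that read Mapk8 at the control level, Lox differed by −1.28, Plod2 by −1.19 and Loxl2 by −1.001, and 0 enzymes were called.

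Cell type markers and substrates were measured in the same comparisons. In JNK1Δhepa against control at 28 d, the median difference was −1.10 over 11 stellate cell and myofibroblast markers and −0.37 over 10 fibrillar substrates, with 0 called in either list. In JNK1-/- the medians were −0.68 and −0.13. Without control replicate 3 they were −0.15 and −0.12 in JNK1Δhepa and 0.11 and −0.03 in JNK1-/-. Without control replicate 1, the stellate markers Acta2, Des, Lrat, Myh11, Tagln and Vim were called lower in JNK1Δhepa. So were the substrates Col1a1, Col1a2, Col3a1 and Col5a2, against 5.7% of all symbols called lower. No gene of either list was called higher in that fit, and none was called in JNK1-/-. The stellate list averaged 6.56 to 6.99 in JNK1Δhepa livers and 6.69 to 7.67 in JNK1-/- livers, against 6.76 to 9.21 in control livers. Other marker lists also read lower in JNK1Δhepa, with 0 genes called. Their medians were −0.78 for portal fibroblast and mesothelial, −0.74 for bile duct, −0.49 for macrophage and −0.22 for endothelial markers. For hepatocyte markers the median was 0.09. In JNK1-/- these medians were −0.36, −0.47, −0.22, 0.19 and 0.08 in the same order. Without control replicate 1, Krt7, Thy1 and Adgre1 were called lower in JNK1Δhepa too. The 4 substrates with the smallest p, Col5a2, Col3a1, Col1a2 and Col1a1, differed by −0.87, −1.10, −1.07 and −1.11 in JNK1Δhepa with all arrays, and none then passed the test. The part of these markers and substrates in the enzymes' differences was not tested. Of the 22 other collagen-modifying genes, 1 was called in the mutants against control at either time with all arrays: Bmp1 rose by 0.50 in JNK1-/- at 48 h. Without control replicate 1, Serpinh1 was called lower and Tmem38b higher in JNK1Δhepa at 28 d.

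Among the remaining enzymes, P4ha2 at 48 h measured 5.33, 5.46 and 5.59 in JNK1-/- livers and 5.44, 5.49 and 5.57 in JNK1Δhepa livers, against 5.85, 5.70 and 6.05 in control livers. Neither mutant overlapped the controls, and the differences were −0.41 (SE 0.16, limma adjusted p = 0.195) and −0.36 (SE 0.16, limma adjusted p = 0.9995). Loxl4 at 48 h measured 5.27, 6.25 and 5.65 in JNK1-/- livers, below the 6.47, 7.09 and 6.50 of control livers, with a difference of −0.96 (SE 0.44, limma adjusted p = 0.303). Plod1 at 28 d measured 10.16, 10.08 and 9.89 in JNK1Δhepa livers, against 9.90, 9.73 and 9.35 in control livers, and the ranges met. Its difference was 0.39 (SE 0.16, limma adjusted p = 0.257). Without JNK1Δhepa replicate 1 it was 0.33, and without control replicate 3 it was 0.23.

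The 2 mutants were also compared with each other. JNK1-/- against JNK1Δhepa gave 0 called enzymes with limma at 28 d (1 at an unadjusted p under 0.05; 0.962% of all symbols called) and 0 at 48 h (2 at an unadjusted p under 0.05; 2.44% called). At 48 h Loxl4 measured 5.27, 6.25 and 5.65 in JNK1-/- livers, against 7.29, 7.10 and 7.41 in JNK1Δhepa livers. The groups were well apart, with a difference of −1.54 (SE 0.44, 95% confidence interval −2.47 to −0.61, limma adjusted p = 0.0721). The call depended on the fit: over 9 alternatives other than leaving out an array, the limma adjusted p ran between 0.0398 and 0.0851, and 4 of the 9 passed the test. With 1 array left out it did not pass. Loxl2 differed by −0.86 at 48 h (limma adjusted p = 0.221), and Plod1 by −0.36 at 28 d (limma adjusted p = 0.248), or by −0.30 without JNK1Δhepa replicate 1.

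Over the 24 arrays the enzymes fell into patterns, described here by Pearson correlations of arrays that share groups and a joint normalisation. Lox, Loxl1, Loxl2 and Plod2 correlated with each other between 0.664 and 0.871, and between 0.691 and 0.894 after group means were removed. Loxl4 and P4ha1 correlated at 0.817 (0.655 within groups). Across these sets the correlations ran between −0.292 and 0.216 over all arrays, but between 0.494 and 0.770 within groups, where replicate 3 of the ligated 28 d livers of control and JNK1-/- mice was high for both sets. Plod1 correlated with the other enzymes between −0.564 and 0.0515 and P4ha2 between −0.115 and 0.343.

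**Figure D5:**
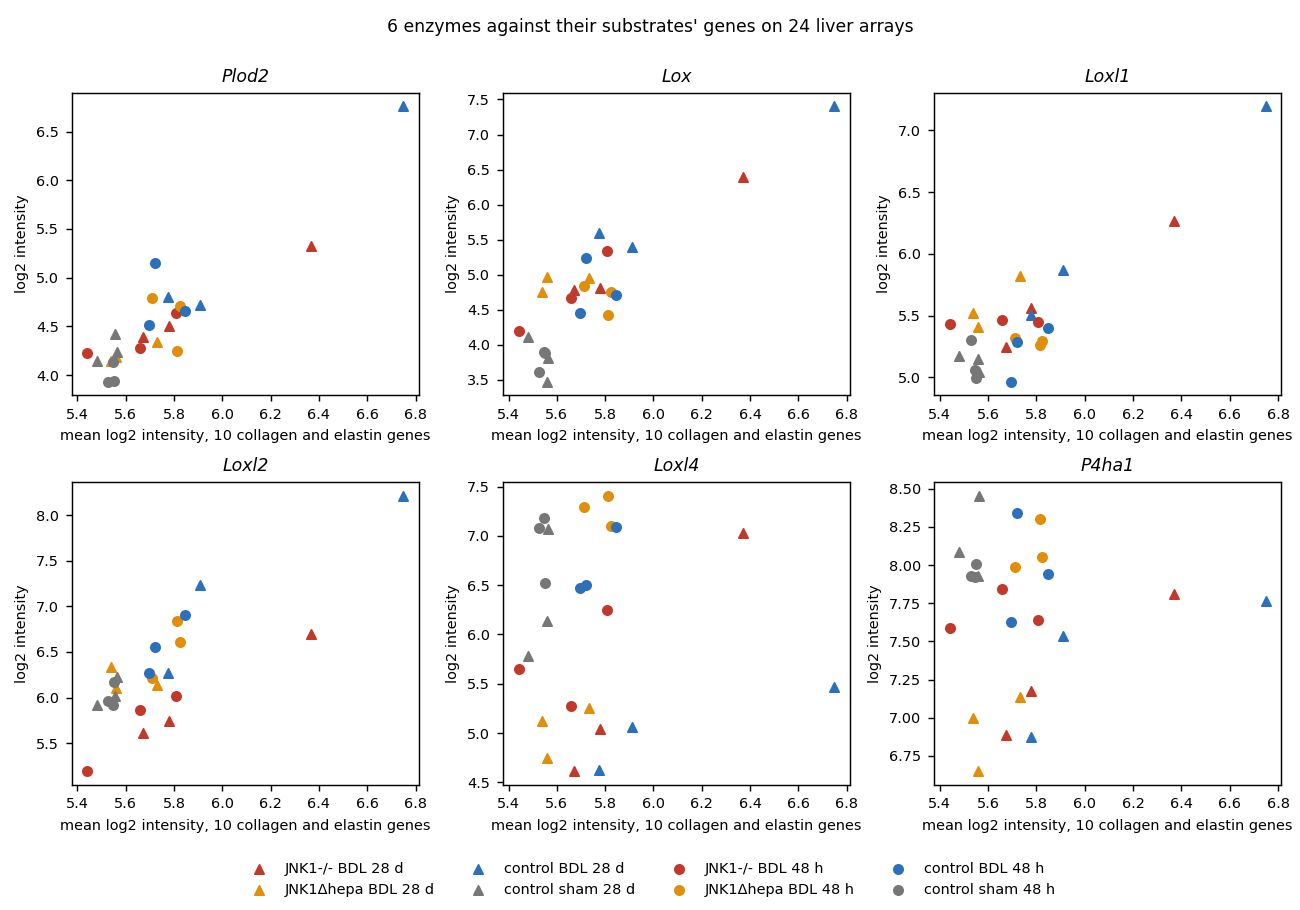
Log2 intensity of 6 enzymes (y axes) against the mean log2 intensity of 10 fibrillar collagen and elastic fibre genes (x axes), 1 point per array, coloured by group. Plod2, Lox, Loxl1 and Loxl2 are high on the arrays with the highest collagen levels, 6.75 in ligated control and 6.37 in ligated JNK1-/- liver at 28 d, and Loxl4 and P4ha1 show no such order over all arrays.

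The mean level of the 10 substrates was set against the enzymes as well. Its correlation over the 24 arrays was 0.914 for Plod2, 0.883 for Lox, 0.879 for Loxl1 and 0.804 for Loxl2, against 0.0113 for Loxl4 and 0.0368 for P4ha1. After group means were removed the enzymes were not split in this way: it was 0.877 for Plod2, 0.875 for Lox, 0.919 for Loxl1 and 0.894 for Loxl2, and 0.681 for Loxl4 and 0.675 for P4ha1. Both arrays numbered 3 lie at the upper end of that relation and weigh heavily in it. With the 11 stellate cell and myofibroblast markers, Loxl2 had a correlation of 0.860 (0.904 within groups) and Lox 0.663 (0.832 within groups). With the 8 macrophage markers Loxl2 had 0.480 (0.644 within groups) and Lox 0.846 (0.557 within groups). Other marker lists correlated with both genes as well. With the portal fibroblast and mesothelial markers Loxl2 had 0.584 (0.502 within groups) and Lox 0.832 (0.722). With the bile duct markers Loxl2 had 0.600 (0.567), Lox 0.796 (0.703) and Plod2 0.877 (0.843). With the endothelial markers Loxl2 had 0.375 (0.685) and Lox 0.130 (0.517).

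Single genes with the most similar pattern were ranked by Pearson correlation over the 24 arrays among 16911 genes. For Plod2 they were the collagen gene Col5a2 (0.937), Medag (0.921) and Ehd2 (0.920). For Lox they were Anxa1 (0.947), which encodes annexin A1, Bicc1 (0.942) and Myof (0.936), which encodes myoferlin. Loxl1 was closest to Ak1 (0.917), Capn6 (0.905) and the matrix protein gene Smoc2 (0.903). Loxl2 was closest to Tnc (0.883), which encodes tenascin C, the urokinase gene Plau (0.867) and Rnf150 (0.850). For Loxl4 they were Npas2 (0.890), a clock transcription factor, Ncbp2 (0.865) and Prxl2b (0.863), and for P4ha1 they were Plcxd2 (0.903), Rtp3 (0.901) and Fndc3a (0.900). Plod1 was closest to the glucose transporter gene Slc2a8 (0.898), Phf11c (0.850) and Rgp1 (0.839).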

How the data were processed

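Liver RNA of 24 mice was measured on 24 whole-transcript arrays; per the labels' protocols, only RNA with an integrity number above 8.0 was used. The deposited values are log2 intensities per probe set made by the authors with RMA, per the submitters' processing notes; the sources used here give no version, setting or genome build. Of 35556 probe sets, 21218 carried 1 symbol, and the brightest stood for each of 18820 symbols. No 2 arrays were identical.

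Limma 3.58.1 in R 4.3.3, with data.table version 1.17.8, fitted 8 group means over all 24 arrays, with 16 residual degrees of freedom and 15 contrasts. P-values were adjusted by Benjamini-Hochberg over all symbols. The fit was tested on simulated data in which a gene had the same spread in all groups. That test therefore did not cover the wider spread of ligated control liver at 28 d. The number of arrays limits the precision (median SE 0.129 over all symbols, 0.16 to 0.44 for the enzymes). Pooled variances understate the spread in ligated control liver at 28 d (median SD 0.187, elsewhere 0.115 to 0.139).

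The members, gene lists and alternatives were chosen with earlier results of these data known. All members are named, up to 4 genes of each other list by smallest p, Mapk8 as the label check, and 3 genes of like pattern for each member called at least once, predicted genes left out. Alternatives changed the normalisation, probe set, filter, variances, weights, arrays and block. Replicate numbers were checked for pairing by the correlation of deviations from group means: all 3 exceeded 0.1 only for JNK1Δhepa and control at 28 d (0.501, 0.244 and 0.161), where the block changed no call.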

Additional observations from a re-analysis of the deposited data

How the results depend on the processing

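Of 120 pairs of enzyme and comparison, 11 were called as reported and 24 under at least 1 setting. Of the enzymes called, 1 turned in direction: Loxl2 at 28 d after ligation was −0.082 on its dimmer probe set, a setting chosen after seeing the data. The ligation effect at 28 d had 6 enzymes, 3 to 5 when 1 array was left out and 1 in a fit to the groups compared alone. Ligated control liver at 28 d against 48 h had 2 enzymes, 4 with arrays centred on their medians, 0 with the groups compared alone and 0 to 3 with an array left out. The ligation effect at 48 h had 0 enzymes, 3 with the groups compared alone and 1 with array weights. Array weights also gave 1 enzyme, against 0, for each of JNK1-/- against control at 28 d and at 48 h, JNK1Δhepa against control at 28 d and JNK1-/- against JNK1Δhepa at 48 h. That last comparison had 1 enzyme with the dimmer probe sets, with the groups compared alone and with the replicate block too. With 1 array left out, JNK1-/- against control at 28 d had 0 to 1 enzymes and JNK1Δhepa against control at 28 d had 0 to 4. The replicate block changed no other count by over 1.5 times. In every comparison the labels link samples of different groups only by a number. Shares of all symbols were not counted for the changes of normalisation, probe set, filter, variances, weights and block. Nor were they counted for the groups compared alone, so the enzyme counts there have no such reference. The causes were not tested.

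Centring each array moved the median of all symbols to −0.23 for ligation at 28 d and −0.20 at 48 h, and to 0.15 for JNK1Δhepa against control at 28 d. With 3 arrays a group, differences near the median SE of 0.129 over all symbols were not detectable. The enzymes' own SEs of a difference between 2 groups ran from 0.16 for P4ha2 to 0.44 for Loxl4. Larger differences therefore also went uncalled, such as −1.54 for Loxl4 in JNK1-/- against JNK1Δhepa at 48 h.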

Other observations

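In ligated liver at 28 d, the arrays numbered 3 of control and of JNK1-/- mice stood high together. Replicate 3 was the highest of its group for 6 of the 8 enzymes in control and for 7 of 8 in JNK1-/-, but for 1 of 8 in JNK1Δhepa. The deviations of the JNK1-/- and the control array from their group means correlated at 0.501 over all genes. In JNK1-/- liver replicate 3 measured 6.40 for Lox, 6.27 for Loxl1, 6.70 for Loxl2, 5.33 for Plod2, 7.03 for Loxl4 and 7.81 for P4ha1. Without both arrays, 4 of the 8 enzymes were called for ligation at 28 d in control liver, and 0 for either mutant against control at 28 d. Shares of all symbols were not counted in this setting. This setting, and the recounts of gene lists with an array left out or with the other sham livers, were chosen after seeing the data.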
